A study of Mus musculus with 6 samples.

Results

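Small nucleolar RNA (snoRNA) host genes were followed in RAW264.7 cells given titanium (Ti) particles. The set held 9 genes, chosen by name from the 55536 genes of the annotation: Gas5, Snhg1, Snhg3, Snhg5, Snhg6, Snhg8, Snhg12, Snhg15 and Zfas1. The rule names the genes and uses no measured value. RAW264.7 is a macrophage-like cell line taken from a tumour of a BALB/c mouse; the labels of these samples give C57BL/6 as the background strain. The study sequenced total RNA from 3 control libraries (Ctrl, cells given PBS) and 3 libraries from cells given Ti particles, the kind of wear debris that metal implants shed, to profile messenger and non-coding RNA. The sources used here give neither the dose nor how long cells were exposed, and the labels do not say whether replicates came from separate cultures, so every p-value measures only the spread between these libraries. All 6 libraries came from the same line, with no further genotype or agent named in the labels.

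A snoRNA host gene makes a long transcript whose exons are joined into a spliced RNA and whose introns carry snoRNAs, which are trimmed out of the excised introns. Box C/D snoRNAs guide ribose methylation and box H/ACA snoRNAs guide pseudouridylation, mostly of ribosomal RNA. The spliced RNA of most of these hosts is little translated into protein, and several are known to be destroyed by nonsense-mediated decay, a pathway that needs translation. Several hosts also start with a run of pyrimidines, the terminal oligopyrimidine (TOP) start shared with ribosomal protein messenger RNAs, whose translation follows growth signals.

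The annotation places 33 snoRNA genes inside the 9 hosts on the same strand. Gas5, named for its rise in growth-arrested cells, lies at chr1:161034422-161038539 on the plus strand (GRCm38) and holds 10 of them. Snhg1 lies at chr19:8723475-8726443 on the plus strand and holds 8, Snord22 among them. Zfas1, which begins beside Znfx1 on the other strand, lies at chr2:167062934-167065862 and holds 3, Snord12 among them. Snhg5, at chr9:88521050-88522929 on the minus strand, holds the copies Snord50a and Snord50b. Snhg6, at chr1:9941959-9944118 on the minus strand, holds Snord87. Snhg3, at chr4:132348014-132353686 on the minus strand, holds Snora73a and Snora73b, H/ACA RNAs known for a part in the cleavage of the ribosomal RNA precursor. Snhg12, at chr4:132308623-132311024 on the plus strand, holds 5 snoRNA genes: Snora44, Snora61, Snord99 and a pair both named Snora16a. Snhg8, at chr3:123507552-123508404 on the minus strand, holds Snora24. Snhg15, at chr11:6525591-6528760 on the minus strand, holds Snora9.

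The sequences of 3 snoRNAs with values in every library are shown because they bear the marks of the 2 families. Capitals mark TGATGA (box C) near the start and CTGA (box D) near the end of a C/D snoRNA, or the ACA close to the end of an H/ACA snoRNA. All are 5′ to 3′ from the GENCODE vM21 transcripts. Gm22357 lies in Gas5 at chr1:161036057-161036139, Gm24452 in Snhg1 at chr19:8724531-8724602 and Snora24 in Snhg8 at chr3:123507937-123508066.
Gm22357: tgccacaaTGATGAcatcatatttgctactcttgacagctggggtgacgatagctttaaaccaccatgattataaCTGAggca
Gm24452: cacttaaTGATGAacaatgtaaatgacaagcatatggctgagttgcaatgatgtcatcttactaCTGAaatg
Snora24: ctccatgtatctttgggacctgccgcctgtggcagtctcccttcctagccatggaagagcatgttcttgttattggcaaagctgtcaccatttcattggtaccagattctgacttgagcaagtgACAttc

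Both exact boxes were found in 20 of the 33 snoRNA sequences inside the hosts (60.6%) and in 304 of all 1507 annotated snoRNA transcripts (20.2%). Another 8 held ACA near the end without the pair of boxes, and 5 held neither. The search took these letters on the snoRNA's own strand, so the 5 may carry boxes that differ by a base. The map of the hosts shows where the snoRNA genes sit against the exons of the leading isoform. This is the isoform with the most counts after scaling by exon length over genomic span. In deposited values another form can lead, as Gas5-223 did over the Gas5-218 used here (2377 against 791 in Ctrl replicate 1). By that isoform 17 of the 33 lay in an intron and 16 overlapped an exon. Of the 16, 14 lay in leading isoforms annotated as keeping an intron; the others were Snora73a and Snord99.

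**Figure D1:**
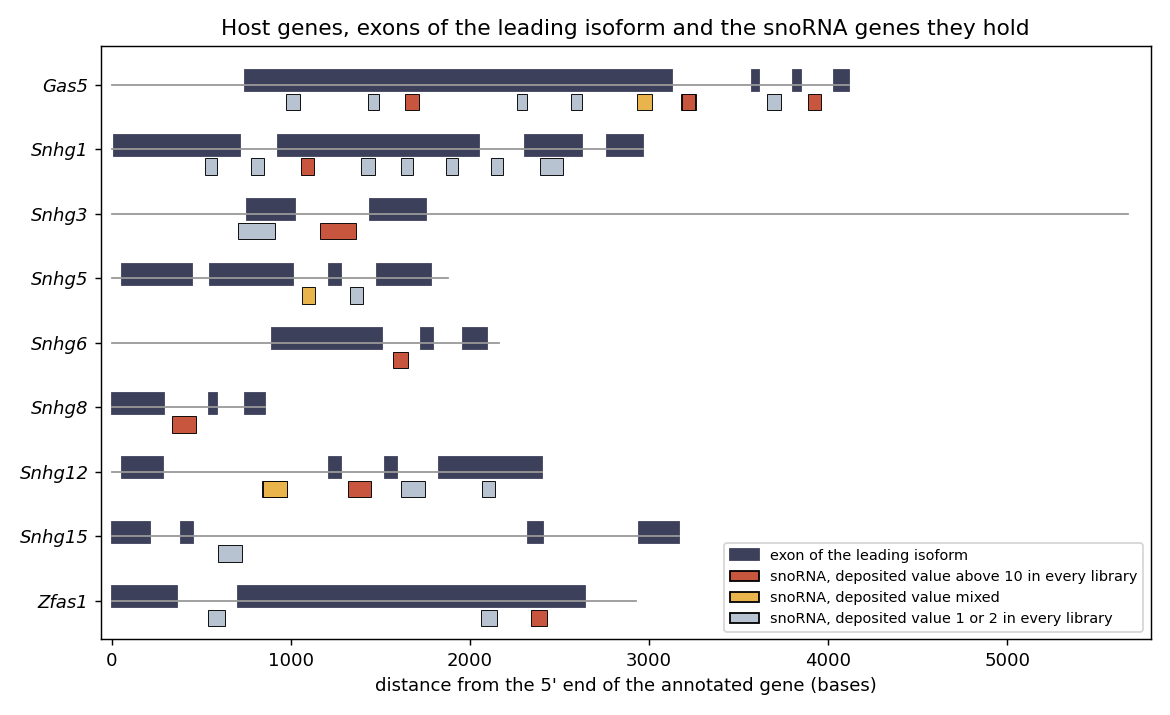
Map of the 9 host genes, drawn to scale. The horizontal axis is the distance from the gene's first base in its own direction of transcription, in bases; dark blocks are exons of the leading isoform and small boxes are snoRNA genes coloured by their deposited value. Rows above 10 in every library (9 of 33) are scattered among rows held at 1 or 2 (21 of 33).

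Rescaled totals ran from 37685950 estimated counts in Ti replicate 2 to 60242851 in Ctrl replicate 1, so that 3 counts, taken as the floor of detection for counting error only, were worth 0.0498 to 0.0796 CPM. Macrophage markers were present, with 7 of 8 at a mean of at least 1 CPM and summed levels of 5218 to 6947 CPM in Ctrl and 6465 to 8293 in Ti libraries. No marker of fibroblasts, T cells, B cells, epithelium, endothelium or neutrophils reached a mean of 1 CPM. Ti replicate 2 stood apart for the host genes, as described below, and values without it are given for each host gene. In bulk RNA a change in the make-up of a culture and a change in RNA per cell cannot be told apart.

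Levels per length were compared first, as CPM per kilobase of exon, summed over isoforms and averaged over the 6 libraries (mean ± SD). Gas5 stood highest at 53.9 ± 7.54, above 90.1% of the 15376 tested genes, and exceeded Snhg1 at 44.8 ± 5.43 in 6 of 6 libraries. Snhg1 in turn exceeded Snhg3, at 31.8 ± 5.14, in 6 of 6. Below these the order was less firm. Zfas1 stood at 25.9 ± 4.83 and Snhg8 at 22.7 ± 2.43, with Zfas1 higher in 4 of 6 libraries. Snhg5 at 19.0 ± 3.78 and Snhg15 at 17.9 ± 1.87 also changed places between libraries, Snhg5 being higher in 4 of 6. Snhg12 at 10.9 ± 4.74 and Snhg6 at 7.52 ± 1.04 were the lowest, and Snhg6 still lay above 54.3% of tested genes.

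None of the 9 host genes changed with Ti particles at an edgeR adjusted p of 0.05. Over all tested genes 4 passed, 0.026%, with 0.013% higher and 0.013% lower, so a count of 0 in 9 is near the background. At an unadjusted p under 0.05 the count was 0 of 9, against 6.76% of all tested genes, and DESeq2, which called 1.9% of all genes, also called no host. The fitted log2 fold changes lay between -0.22 and 0.34, and 31.9% of tested genes moved further than any host. Their median was 0.17, against 0.0053 over all tested genes, and 6 of 9 were positive, against 50.9% of all genes. The hosts were measured with a median standard error of 0.18 on the log2 scale, below the 0.27 of all tested genes. Apart from Snhg12, the 95% intervals of the Ti over Ctrl fold reached no lower than 0.634 and no higher than 1.65.

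**Figure D2:**
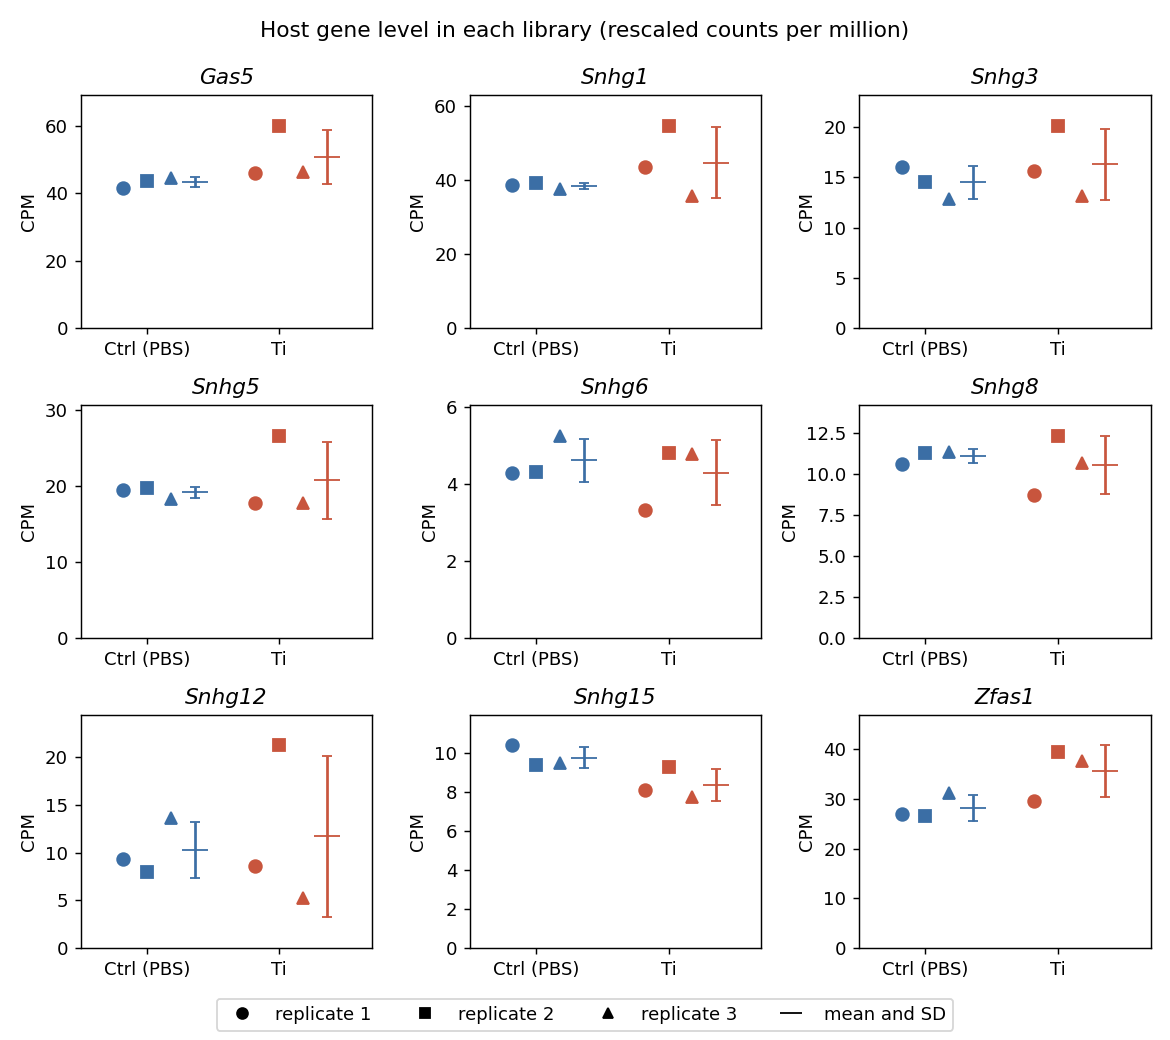
CPM of each host gene in the 6 libraries, with 1 panel per gene and a vertical axis that starts at 0. Marker shape gives the replicate and the bar beside each group its mean and SD. Ti replicate 2 is the highest point in 7 of 9 panels.

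Among the hosts of box C/D snoRNAs, Gas5 read 41.5, 43.7 and 44.5 CPM in Ctrl replicates 1, 2 and 3 and 46.0, 59.95 and 46.4 CPM in Ti replicates 1, 2 and 3. All Ti libraries lay above all Ctrl libraries, a separation that 6.63% of tested genes showed in this direction. The log2 fold change was 0.23 ± 0.14 (SE; 95% interval -0.11 to 0.57; edgeR adjusted p = 0.848). Without Ti replicate 2 it was 0.09. The annotated span of Zbtb37 overlaps Gas5 by 428 bases on the opposite strand; Zbtb37 read 8.72, 5.06 and 9.10 CPM in Ctrl and 7.33, 14.9 and 11.8 CPM in Ti libraries, and was also highest in Ti replicate 2.

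Snhg1 read 38.5, 39.1 and 37.6 CPM in the Ctrl libraries and 43.6, 54.6 and 35.7 CPM in the Ti libraries. The Ctrl libraries agreed closely, while the Ti libraries reached both above and below them. Its log2 fold change was 0.22 ± 0.17 (edgeR adjusted p = 0.908), and 0.05 without Ti replicate 2.

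Zfas1 had the largest difference of the 9. It read 26.9, 26.5 and 31.3 CPM in Ctrl and 29.7, 39.5 and 37.6 CPM in Ti libraries, so that Ti replicate 1 fell within the Ctrl range and the other two lay above it. The log2 fold change was 0.34 ± 0.16 (95% interval -0.05 to 0.72; edgeR adjusted p = 0.778), and it was 0.25 without Ti replicate 2. Set side by side by replicate number, Ti was higher in 3 of 3 pairs for Zfas1 and Gas5 (18.3% of tested genes) and in 0 of 3 for Snhg15 (17.3%). With the replicate number as a block, the value for Zfas1 was 0.33 (edgeR adjusted p = 0.553). Znfx1, whose annotated span overlaps Zfas1 by 82 bases on the opposite strand, read 69.5, 56.5 and 35.5 CPM in Ctrl and 77.9, 46.4 and 120 CPM in Ti libraries. The sources used here do not say whether the counting used strand, so reads over bases shared by Zfas1 and Znfx1, or by Gas5 and Zbtb37, cannot be assigned to either gene.

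Snhg5 read 19.5, 19.8 and 18.3 CPM in Ctrl and 17.8, 26.7 and 17.8 CPM in Ti libraries. In this host 2 Ti libraries lay below every Ctrl library and the other above every one, and the log2 fold change of 0.11 ± 0.20 became -0.11 without Ti replicate 2. Snhg6 had the fewest counts, 155 to 275 per library, and read 4.30, 4.31 and 5.27 CPM in Ctrl and 3.32, 4.82 and 4.78 CPM in Ti libraries. The groups of Snhg6 overlapped, and its log2 fold change was -0.10 ± 0.23; it was -0.19 without Ti replicate 2 and turned to 0.052 without Ti replicate 1 and to 0.13 on unrescaled values.

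Among the hosts of H/ACA snoRNAs, Snhg3 read 16.1, 14.6 and 12.9 CPM in Ctrl and 15.6, 20.1 and 13.2 CPM in Ti libraries. Its log2 fold change of 0.17 ± 0.20 was -0.01 without Ti replicate 2. Snhg3 lies almost wholly within the annotated span of Rcc1, a protein-coding snoRNA host on the same strand (5592 shared bases), so the division of reads between the genes is uncertain. Gm17300, a non-coding gene on the opposite strand, shares 1611 bases with Snhg3 and read 2.28, 0 and 0.886 CPM in Ctrl and 0.708, 0.856 and 0.831 CPM in Ti libraries. Snhg8 read 10.6, 11.3 and 11.4 CPM in Ctrl and 8.77, 12.3 and 10.7 CPM in Ti libraries, a log2 fold change of -0.07 ± 0.18 with overlapping groups, which was -0.19 without Ti replicate 2 and turned to 0.050 without Ti replicate 1.

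Snhg15 was the only host whose Ti libraries all lay below its Ctrl libraries. It read 10.4, 9.39 and 9.48 CPM in Ctrl and 8.08, 9.26 and 7.71 CPM in Ti libraries. Such a separation was seen in 6.71% of tested genes. The log2 fold change was -0.22 ± 0.16 (95% interval -0.61 to 0.16; edgeR adjusted p = 0.880), and it was -0.31 without Ti replicate 2.

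Snhg12, which carries both families, was the most variable. It read 9.37, 7.95 and 13.6 CPM in Ctrl and 8.598, 21.2 and 5.24 CPM in Ti libraries, so the Ti group held both its highest and its lowest value. The log2 fold change was 0.18 ± 0.53, with a 95% interval of the fold from 0.461 to 2.79, and it turned to -0.58 without Ti replicate 2 and to -0.032 with the replicate number as a block.

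**Figure D3:**
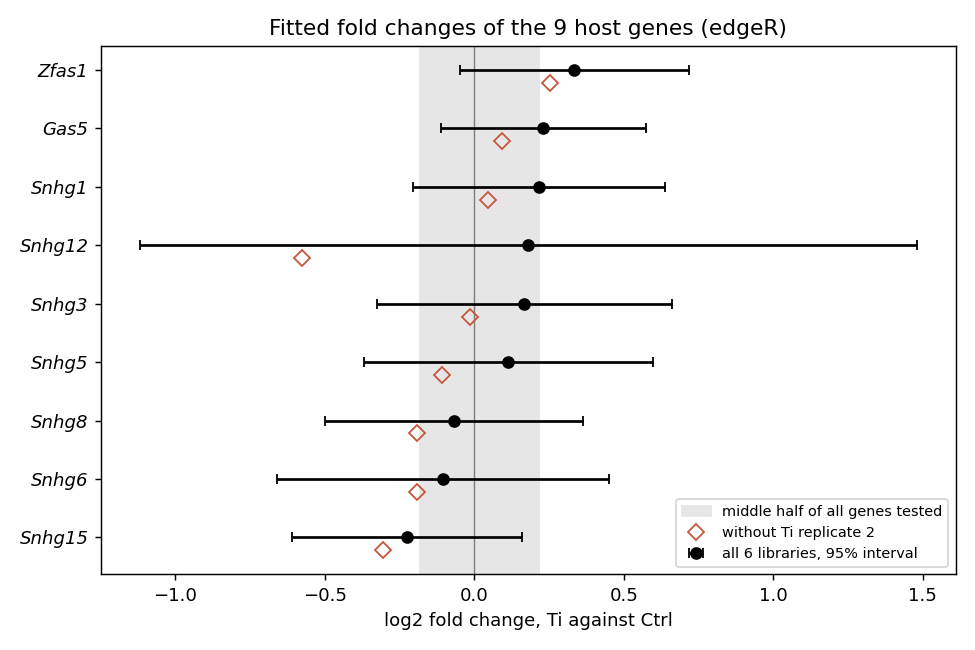
Log2 fold change (Ti over Ctrl) of each host gene from all 6 libraries with its 95% interval, and the same without Ti replicate 2 (open diamonds). The grey band spans the quartiles of all tested genes, -0.18 to 0.22. Every interval crosses 0, and every diamond lies to the left of its filled point.

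The libraries of the Ti group did not share 1 level of host RNA. The 9 hosts summed to 177, 177 and 184 CPM in the Ctrl libraries and to 181, 248 and 179 CPM in the Ti libraries. The group sums were 179 ± 4.27 and 203 ± 39.4 CPM (mean ± SD), a ratio of 1.13, with p = 0.5 in a two-sided exact permutation test whose smallest possible p is 0.1. On the log2 scale the ratio was 0.18, and without Ti replicate 2 it was 0.0079 (exact permutation p = 1.0). Ti replicates 1 and 3 lay within the Ctrl range, and Ti replicate 2 lay above it.

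In Ti replicate 2 the hosts lay a median of 0.48 above their own Ctrl mean on the log2 scale, against 0.02 for all tested genes. It was the highest library for 7 of 9 hosts and for 19.5% of tested genes. The other two were Snhg6 and Snhg15, highest in Ctrl replicates 3 and 1. In Gas5, Snhg1, Snhg3, Snhg5 and Zfas1 the excess in Ti replicate 2 was close to equal, from 0.47 to 0.51, while Snhg8 gave 0.15 and Snhg12 gave 1.08. This library also had the smallest rescaled total of the 6, and the part of depth in the excess was not tested. Without it, 3 of 9 hosts had a positive log2 fold change and their median was -0.11, against -0.0026 for all tested genes. Hosts varied together across the 6 libraries, with Pearson's r on log2 CPM above 0 in 32 of 36 pairs and a median of 0.43; the highest was 0.92, between Snhg1 and Snhg3. All pairs share the same 6 libraries, and without Ti replicate 2 the count was 18 of 36 and the median -0.0062, so the common variation rests on that library.

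**Figure D4:**
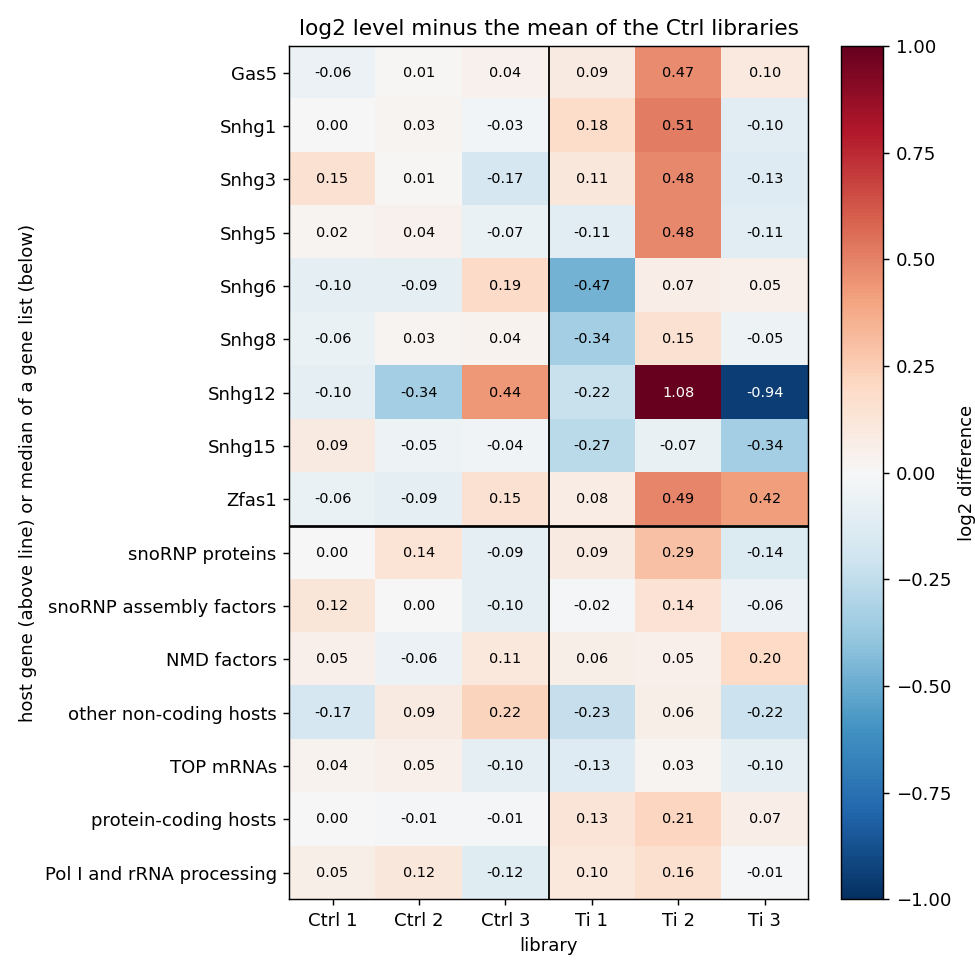
Log2 level in each library minus the mean of the Ctrl libraries, for the 9 hosts (above the line) and as the median of 7 gene lists (below it). Colour runs from blue (lower) to red (higher) and is capped at 1 either way. The column of Ti replicate 2 reaches 0.47 to 0.51 in 5 hosts, against list medians of 0.03 to 0.29.

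Isoforms were examined next, since spliced host RNAs and forms that keep an intron differ in the sequence they hold around the snoRNAs. The annotation lists 81 isoforms of the 9 hosts, of which 76 had a value above 0 and 57 passed the filter on low counts. None of the 57 was called at an edgeR adjusted p of 0.05 (3 of all 41599 tested transcripts were, 0.00721%), and 1 had an unadjusted p under 0.05, against 4.29% of transcripts. A test of whether an isoform moved differently from the rest of its gene also called none of 57, against 0.327% of all isoforms tested that way. In 8 isoforms all Ti libraries lay above all Ctrl libraries (5.84% of tested transcripts did), and in 2 all lay below (4.63%).

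Transcripts annotated as keeping an intron made up most of the rescaled count of 4 hosts. In Gas5 they held 96.5 ± 0.77% in Ctrl and 95.7 ± 0.97% in Ti libraries (exact permutation p = 0.4, smallest possible 0.1). In Snhg1 they held 77.0 ± 4.16% and 75.8 ± 3.16%, and in Snhg5 87.2 ± 1.02% and 85.1 ± 3.04%. Zfas1 was carried by them almost wholly, its leading form Zfas1-204 alone holding 64.9 ± 2.11% in Ctrl and 63.7 ± 4.31% in Ti libraries. Of the hosts with such forms, Snhg8 stood at the other end, with 11.8 ± 4.28% and 10.4 ± 1.94%. Its spliced form Snhg8-201, of 3 exons, held 79.0 ± 8.06% and 76.3 ± 4.84%. For Snhg3, Snhg6, Snhg12 and Snhg15 no isoform is annotated as keeping an intron, so no such share could be given. These shares are estimates over overlapping isoforms, and total RNA also holds unspliced precursor. They also depend on the scaling of each value by exon length over genomic span, which lowers a spliced form more. That ratio was 605 over 2969 bases for the spliced Snhg1-211 and 2348 over 2955 for Snhg1-203, which keeps an intron. Their deposited values were 1537 and 900 in Ti replicate 1, but 0 and 277 in Ctrl replicate 3. How far each of these sets the shares was not tested.

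Snhg1 had the isoform with the smallest p. Snhg1-207, a spliced form of 9 exons, read 3.95, 6.08 and 6.37 CPM in Ctrl and 2.79, 3.40 and 2.86 CPM in Ti libraries. Its log2 fold change was -0.87 ± 0.28 (edgeR adjusted p = 1.0). Its share of the gene was 10.3, 15.6 and 16.9% in Ctrl against 6.39, 6.23 and 7.997% in Ti libraries, without overlap. The exact permutation p of that share was 0.1, the smallest possible, and the unadjusted p in the test of isoform use (diffSpliceDGE) was 0.19. Shares without overlap were also seen in other host isoforms, Gas5-202 and Snhg6-205 among them. How common they are over all transcripts was not counted. In the other direction, Snhg1-203, which keeps an intron, held 33.1, 29.1 and 14.02% of the gene in Ctrl and 35.2, 37.8 and 37.1% in Ti libraries. The spliced Snhg1-211, of 10 exons, was listed at 0 in Ctrl replicate 3 but held 11.5 and 9.93% in the other Ctrl libraries and 13.8 to 17.1% in the Ti libraries. In the same library Snhg1-215, which keeps an intron, stood at 35.4% against 10.4 to 15.3% in the other 5 libraries. The summed Snhg1 level of that library, 37.6 CPM, was close to the other Ctrl libraries.

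Much of the spread of Snhg12, but not its low value in Ti replicate 3, lay in 1 isoform. Snhg12-208, of 2 exons, read 0.212, 0.169 and 5.62 CPM in Ctrl and 0.145, 7.96 and 0.123 CPM in Ti libraries. It was thus high in 1 library of each group only, holding 41.4% of the gene in Ctrl replicate 3, 37.5% in Ti replicate 2 and 1.69 to 2.35% in the other 4. Leaving this isoform out, an alternative added once the data had been seen, gave Snhg12 a log2 fold change of 0.11 in place of 0.18. The largest form by pooled count, Snhg12-205, read 4.70, 2.53 and 1.88 CPM in Ctrl and 2.95, 3.67 and 0.935 CPM in Ti libraries, with groups that overlapped.

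In Snhg6 the leading forms differed in opposite directions. Snhg6-205 read 2.54, 1.95 and 2.39 CPM in Ctrl and 0.772, 1.89 and 1.43 CPM in Ti libraries, a share of 49.9 ± 7.92% against 30.8 ± 7.99% (exact permutation p = 0.1, the smallest possible). Snhg6-203 read 1.09, 1.60 and 1.47 CPM in Ctrl and 2.01, 1.99 and 1.76 CPM in Ti libraries. Neither passed the transcript test, with log2 fold changes of -0.76 ± 0.39 and 0.46 ± 0.27. Without Ti replicate 1 that of Snhg6-205 was -0.48. In Gas5 the leading forms Gas5-218 and Gas5-223 overlapped between groups, while Gas5-202 read 7.25, 6.88 and 7.47 CPM in Ctrl and 8.40, 11.4 and 9.48 CPM in Ti libraries, a log2 fold change of 0.42 ± 0.22. The pairs that carry most of Snhg3 (Snhg3-202 and Snhg3-201) and of Snhg15 (Snhg15-204 and Snhg15-201), and the leading Snhg5-206, each overlapped between groups.

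**Figure D5:**
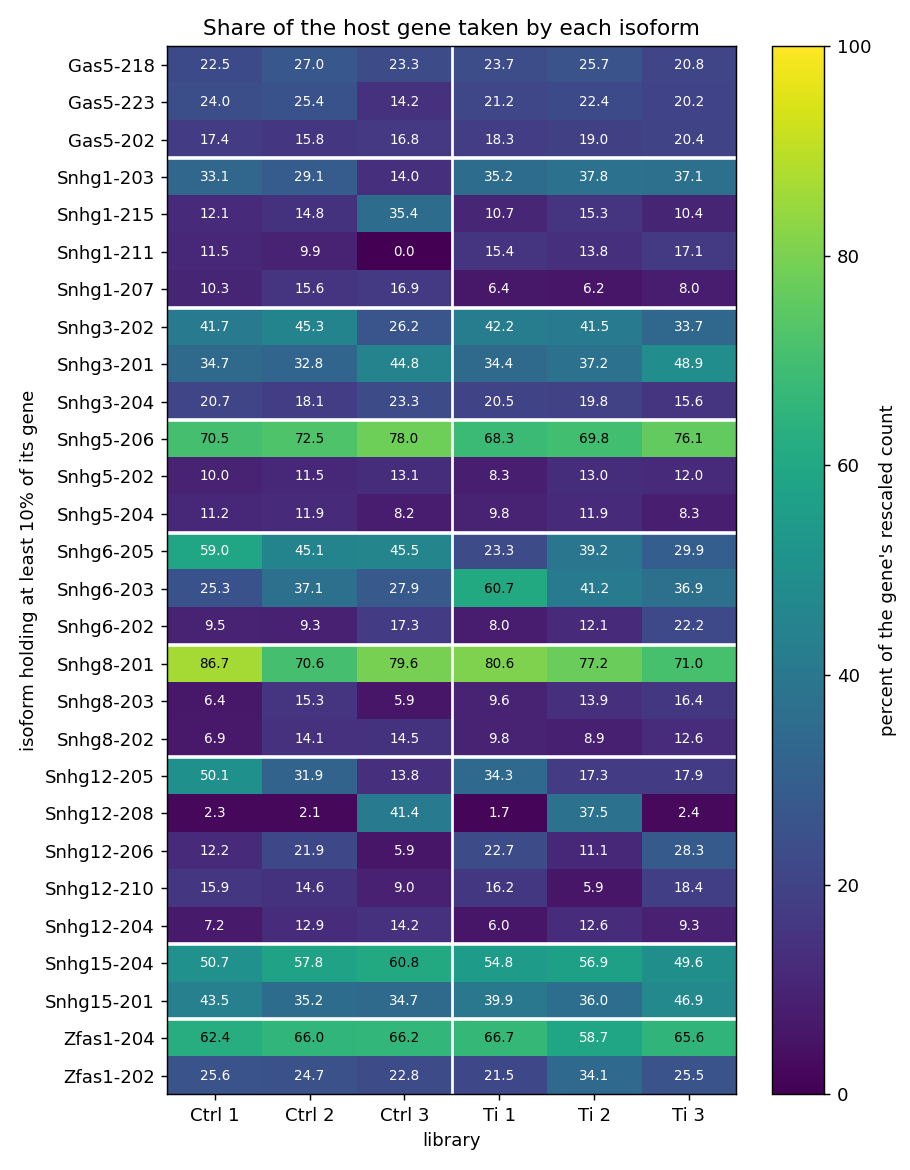
Percent of each host's rescaled count held by the 28 isoforms with at least 10% of their gene, by library. White lines separate genes and groups. Snhg12-208 reaches 41.4% in Ctrl replicate 3 and 37.5% in Ti replicate 2 and is nearly black in the other 4 libraries, and Snhg1-211 is empty only in Ctrl replicate 3.

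The snoRNAs inside the hosts had rows of their own, but their bases also lie within the host genes. Host reads could fall on these bases, and their part in the snoRNA rows was not tested. Of the 33 rows, 21 held a value of 1 or 2 in every library, 19 of them exactly 1, and 9 stood above 10 in every library. Over all 1507 annotated snoRNA rows, 100 held 1 or 2 in every library. A value that does not vary with depth cannot be read as a level, so these 21 snoRNAs were not compared. Of the other 12, 11 were tested, none was called (lowest edgeR adjusted p = 0.922; 0.026% of all tested genes were called) and 0 of 11 had an unadjusted p under 0.05, against 6.76% of all. A positive log2 fold change was found in 7 of 11, against 50.9% of all tested genes, with a median of 0.07.

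Snora73b, inside Snhg3, was the most abundant, at 29.6, 22.2 and 21.99 CPM in Ctrl and 22.1, 34.4 and 29.3 CPM in Ti libraries. The groups overlapped, and the log2 fold change was 0.22 ± 0.22 (0.062 without Ti replicate 2). Gm22357, inside Gas5, read 6.15, 5.36 and 5.53 CPM in Ctrl and 5.75, 8.19 and 6.15 CPM in Ti libraries, highest in Ti replicate 2 as its host was, with a log2 fold change of 0.24 ± 0.20 (0.065 without that library). Gm24452, inside Snhg1, read 3.80, 3.49 and 2.08 CPM in Ctrl and 3.60, 4.07 and 2.20 CPM in Ti libraries, low in replicate 3 of both groups. Snora24, inside Snhg8, read 2.86, 3.39 and 2.47 CPM in Ctrl and 2.72, 3.16 and 2.35 CPM in Ti libraries. Gm25789 and 1 of the pair named Snord80, both inside Gas5, averaged 1.34 ± 0.30 and 2.03 ± 0.56 CPM over the 6 libraries, with log2 fold changes of -0.09 ± 0.31 and 0.34 ± 0.31. Without Ti replicate 2 these were -0.21 and 0.073, and without Ctrl replicate 3 the first was 0.19. None of these 6 snoRNAs had groups that did not overlap. Across the 6 libraries Pearson's r of log2 CPM with the host was 0.88 for Gm22357, 0.80 for Snord80 and 0.67 for Gm24452. It was 0.63 for Snora73b, 0.37 for Gm25789 and 0.31 for Snora24. These values describe libraries that the pair shares. Gm22357 and Gm24452 also overlap an exon of their host's leading isoform, so snoRNA and host can share bases as well.

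Near-identical or overlapping snoRNA entries were split unevenly. Their sequences are shown because they bear on which row a read could be given to. Snord50a (chr9:88521529-88521600) and Snord50b (chr9:88521797-88521868), both on the minus strand inside Snhg5, differ at 1 of 72 bases, C50A, counted from the 5′ end of Snord50a. Capitals mark the C and D boxes.
Snord50a: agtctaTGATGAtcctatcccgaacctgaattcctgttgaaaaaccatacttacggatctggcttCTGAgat
Snord50b: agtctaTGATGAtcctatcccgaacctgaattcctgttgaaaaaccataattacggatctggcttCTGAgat

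Snord50a held a value of 1 in every library, whereas Snord50b held 31, 14 and 1 in Ctrl and 17, 20 and 21 in Ti libraries. The copies Snora73a (chr4:132352775-132352979) and Snora73b (chr4:132352322-132352526), on the minus strand inside Snhg3, are 96.6% identical over 205 bases. They differ at G3A, G54A, A111G, T164C, G203A, T204A and T205A, counted from the 5′ end of Snora73a. Capitals mark ACA.
Snora73a: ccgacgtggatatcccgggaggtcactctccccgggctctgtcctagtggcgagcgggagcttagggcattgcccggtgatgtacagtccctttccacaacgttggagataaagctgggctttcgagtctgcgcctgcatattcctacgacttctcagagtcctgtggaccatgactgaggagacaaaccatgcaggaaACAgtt
Snora73b: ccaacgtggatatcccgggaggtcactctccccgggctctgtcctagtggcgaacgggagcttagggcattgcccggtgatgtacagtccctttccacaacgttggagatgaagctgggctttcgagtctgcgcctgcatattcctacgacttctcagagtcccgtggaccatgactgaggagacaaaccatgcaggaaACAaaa

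Snora73a held 1 or 2 in every library, whereas Snora73b held between 891 and 1897. The sources used here do not say how the counting divided reads between such copies, so the value of either copy alone is uncertain. The annotation also holds nested entries, such as the pair named Snord80 in Gas5 at chr1:161037601-161037681 and chr1:161037604-161037680. The longer entry held 1 in every library, and the shorter, which lies wholly inside it, held 107, 83 and 68 in Ctrl and 104, 113 and 74 in Ti libraries.
Snord80 longer entry: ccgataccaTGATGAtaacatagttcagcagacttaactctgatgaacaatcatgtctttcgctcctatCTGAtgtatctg
Snord80 shorter entry: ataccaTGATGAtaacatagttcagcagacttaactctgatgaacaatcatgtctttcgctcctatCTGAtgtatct

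The starts of the hosts were examined for the pyrimidine run of a TOP start, a property that the choice of genes did not use. RefSeq start windows on GRCm38.p6 were matched for 8 hosts, Gas5 with 2, giving 9 windows of 50 bases from 20 before to 30 after the start. The windows with the longest runs are shown, with that of Zfas1 for contrast, and capitals mark the longest run of C and T from 10 before to 20 after the start. They are Snhg1 (chr19:8723467-8723516), Snhg12 (chr4:132308658-132308707), Snhg5 (chr9:88522868-88522917), Snhg8 (chr3:123508307-123508356), the downstream start of Gas5 (chr1:161035146-161035195) and Zfas1 (chr2:167062914-167062963).
Snhg1: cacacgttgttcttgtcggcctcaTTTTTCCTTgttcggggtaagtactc
Snhg12: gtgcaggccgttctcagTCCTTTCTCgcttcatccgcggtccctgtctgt
Snhg5: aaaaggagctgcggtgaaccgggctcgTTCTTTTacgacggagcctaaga
Snhg8: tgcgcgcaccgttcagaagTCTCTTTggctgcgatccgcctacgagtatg
Gas5: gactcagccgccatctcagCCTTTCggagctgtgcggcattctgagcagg
Zfas1: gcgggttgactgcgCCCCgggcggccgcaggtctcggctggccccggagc

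Runs of at least 6 pyrimidines were present in 5 of the 9 windows and in 28.7% of 32851 RefSeq windows of the same kind, and runs of at least 7 in 4 of 9 and in 17.9%. The longest, of 9 bases, were those of Snhg1 and Snhg12. With the first transcribed base as position 1, the run began at 5 in Snhg1, -3 in Snhg12 and 8 in Snhg5. It began at -1 in Snhg8 and at the downstream start of Gas5. The count did not require a run to begin at the first transcribed base, so it is not a count of TOP starts. In the 300 bases around the start, TATAAA was found on either strand for Snhg1, Snhg3, Snhg5 and Snhg8 (13.6% of all 32851 windows of that length), TGACGT for Gas5 and Snhg15 (7.51%) and CACGTG for Snhg15 (7.15%). These matches describe the letters only.

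Genes that work with the hosts were counted over lists chosen by function. No gene of any of the 7 lists was called, against 0.026% of all tested genes. Beside the counts of direction given for the lists, 50.9% of all tested genes had a positive log2 fold change. The genes named were taken from those with the smallest p of their list. Of the 8 tested proteins of snoRNA particles 4 were higher and 4 lower, with a median log2 fold change of 0.01. Nop58, a core protein of C/D particles, read 55.7 ± 14.8 CPM in Ctrl and 119 ± 69.7 CPM in Ti libraries, with a log2 fold change of 1.09 ± 0.44 (edgeR adjusted p = 0.731). Its highest Ctrl value, 69.04 CPM, almost met its lowest Ti value, 69.13 CPM, and without Ti replicate 1 the log2 fold change was 0.50. Its partner Nop56 read 209.9 ± 8.95 and 224 ± 27.3 CPM. Of 12 assembly factors 6 were higher and 6 lower, with a median of 0.02.

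Of the 15 tested factors of nonsense-mediated decay 9 were higher and 6 lower, with a median of 0.02; the largest difference among the 3 with the smallest p was that of Smg5, 75.9 ± 46.7 CPM in Ctrl and 112 ± 32.9 CPM in Ti libraries. Of 19 messenger RNAs with TOP starts outside the ribosome 14 were lower with Ti and 5 higher, with a median of -0.06. The translation factor Eif3f was among them, at 261 ± 12.3 and 218 ± 10.98 CPM without overlap (log2 fold change -0.25 ± 0.09; edgeR adjusted p = 0.635). Of 7 tested non-coding hosts outside the 9, 2 were higher and 5 lower, with a median of -0.02. Among them Epb41l4aos read 7.65 ± 0.63 and 6.53 ± 0.30 CPM without overlap. The separation of Eif3f and Epb41l4aos, lower with Ti, was seen in 6.71% of tested genes. Snhg17 differed in the other direction, at 7.20 ± 3.65 CPM in Ctrl and 10.6 ± 3.38 CPM in Ti libraries, with groups that overlapped.

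Of 24 protein-coding snoRNA hosts outside the ribosome 17 were higher and 7 lower, with a median of 0.06. Prpf39, a splicing factor, read 22.1 ± 5.01 CPM in Ctrl and 40.2 ± 3.43 CPM in Ti libraries (log2 fold change 0.86 ± 0.20; edgeR adjusted p = 0.397), and the nuclear import receptor Ipo7 read 447 ± 33.0 and 579 ± 77.7 CPM, both without overlap. Such a separation, higher with Ti, was seen in 6.63% of tested genes. Wdr43, also among the 24, read 24.5 ± 9.79 CPM in Ctrl and 45.1 ± 10.6 CPM in Ti libraries, with groups that overlapped. Of 25 genes of RNA polymerase I transcription and early ribosomal RNA processing 19 were higher and 6 lower, with a median of 0.07. Myc, a transcription factor that drives ribosome production, read 7.96 ± 2.70 and 25.3 ± 4.35 CPM (log2 fold change 1.67 ± 0.28; edgeR adjusted p = 0.228), while Pes1, a factor of large-subunit assembly, read 225 ± 16.5 and 169 ± 27.7 CPM. Imp4, of the same list, read 86.4 ± 33.6 CPM in Ctrl and 41.2 ± 6.67 CPM in Ti libraries, with groups that overlapped. The excess of Ti replicate 2 in the 9 hosts, a median of 0.48, had list medians of 0.03 to 0.29 beside it. Nop56, Dkc1 and Rack1 stand in more than 1 list.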

How the data were processed

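The authors deposited estimated counts per transcript as whole numbers, in 187351 rows for each of the 6 libraries. Reads were processed with HISAT2 and StringTie and the build mm9 is listed, per the submitters' processing notes; the sources used here name no version and no counting tool. A total of 141862 rows carry the transcript identifiers of GENCODE vM21 (GRCm38), which gave names and positions. The other 45489, assembled transcripts with 36.9% to 51.2% of the deposited totals, were not used. The lower quartile of nonzero deposited values was 3 where span equals exon length (26808 transcripts) and 354 where it is over 100 times longer (4801), so each value was scaled by the ratio of exon length to genomic span before whole-number gene sums were taken. How exact this step is was not tested. CPM divides these counts by TMM-scaled library sizes.

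Genes (15376 of 55536) and transcripts (41599) passing filterByExpr were tested with edgeR 4.0.16 (quasi-likelihood test, TMM, Benjamini-Hochberg over all genes or transcripts at 0.05) in R 4.3.3. Isoform use was tested with diffSpliceDGE. Group sums and isoform shares were compared by exact permutation, two-sided. The edgeR gene and transcript tests and diffSpliceDGE were also run on counts simulated from the fits. There, diffSpliceDGE made many false calls. DESeq2 1.42.0 was an alternative, besides the settings named in the closing section. Tables and plots used Python 3.11.15, pandas 2.3.3 and matplotlib 3.10.9.

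Named were the 9 hosts, isoforms with at least 10% of their gene's count and inner snoRNAs averaging 1 CPM or more. Added to them were the 5 genes most alike in pattern and genes of each list. The list genes were taken from the up to 3 with the smallest p, not all of which are named. Snhg8-201 and the others named fall under this rule, except Gas5-212, Snord50a, Snord50b, Snora73a, Mir5117, the longer Snord80 entry and the neighbours Znfx1, Zbtb37, Rcc1 and Gm17300, chosen after their values were seen. The members and lists were chosen with earlier results of these data known.

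No pair of libraries agreed within sampling noise. Libraries that carry the same number in both groups shared part of their deviation from the group mean. Their correlation across genes was 0.110, 0.144 and 0.266, against -0.170 to 0.0402 for other pairs. The replicate number was therefore used as a block in an alternative fit. Because the labels do not state a pairing, the main fit and the permutation tests stayed unpaired.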

Additional observations from a re-analysis of the deposited data

How the results depend on the processing

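No host gene, host isoform or inner snoRNA was called by the gene or transcript test under any of the alternatives, and the lowest edgeR or DESeq2 adjusted p of a host over them was 0.553 (Zfas1). Gas5, Snhg1, Snhg15 and Zfas1 kept their direction in all of them. With the replicate block, 0 genes were higher and 0 lower, the median of the hosts was 0.087 and Snhg12 turned to -0.032; the isoforms Snhg12-208 (-0.44), Snhg12-204 (-0.33), Snhg3-204 (-0.021) and Snhg5-202 (-0.00083) also turned. The block changed no call of a host gene, host isoform or inner snoRNA. Snhg6 turned to 0.13 with unrescaled values and to 0.020 per kilobase of span. Over all genes, 2 were higher and 2 lower; DESeq2's test gave 163 and 129, leaving out transcripts present in 1 group only gave 0 and 1, no filter on low counts gave 1 lower and values per kilobase of span 0 lower. Over all transcripts, 2 higher and 1 lower became 218 and 186 with DESeq2's test, 7 and 2 with unrescaled values, 2 lower per kilobase of span, and 0 and 0 with DESeq2's size factors, no filter, a mean of at least 50 counts or the block. The usage test called 1 host isoform without a filter, Gas5-212, which was high in Ctrl replicate 3 only. Why these counts moved was not tested.

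With each library left out in turn, 1 to 8 genes were higher and 0 to 7 lower, 0 to 0 transcripts were higher and 0 to 1 lower, and the usage test called 0 to 1 host isoforms (Gas5-212). The log2 fold change then ran from -0.013 to 0.30 for Snhg3, -0.11 to 0.22 for Snhg5, -0.19 to 0.052 for Snhg6, -0.19 to 0.050 for Snhg8 and -0.58 to 0.54 for Snhg12, and the median of the hosts from -0.11 to 0.30. The log2 ratio of their summed CPM ran from 0.0079 to 0.26. Among snoRNAs it ran from -0.27 to 0.19 for Gm25789, -0.14 to 0.30 for Gm24452, -0.20 to 0.046 for Snora24, 0.065 to 0.33 for Gm22357, 0.062 to 0.37 for Snora73b and 0.073 to 0.56 for Snord80. Among isoforms it ran from -0.051 to 0.31 for Gas5-218, -0.0070 to 0.41 for Gas5-223, -0.92 to 0.046 for Snhg1-215, -0.67 to 0.18 for Snhg12-205, -3.81 to 3.74 for Snhg12-208, -0.25 to 0.029 for Snhg12-210, -1.25 to 0.49 for Snhg12-204, -0.26 to 0.028 for Snhg15-201, -0.086 to 0.41 for Snhg3-202, -0.20 to 0.26 for Snhg3-204, -0.15 to 0.17 for Snhg5-206, -0.30 to 0.33 for Snhg5-202, -0.35 to 0.28 for Snhg5-204, -0.43 to 0.60 for Snhg6-202 and -1.07 to -0.48 for Snhg6-205. With 3 libraries a group, differences within the printed intervals were not detectable. Rescaled counts do not equal reads, which makes the floor approximate.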

Other observations

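The tested genes whose log2 level followed the mean of the 9 hosts most closely over the 6 libraries were Gm18943 (Pearson's r 0.99), Ksr1 (0.99), Tsc1 (0.98), Dnajc7 (0.98) and Tbc1d16 (0.98). They were picked for this likeness out of 15376 genes, so the r values are a description. Tsc1 read 26.1, 24.0 and 25.1 CPM in Ctrl replicates 1, 2 and 3 and 22.2, 39.7 and 21.3 CPM in Ti replicates 1, 2 and 3, and Tbc1d16 read 32.9, 31.7 and 34.3 CPM and 23.5, 63.5 and 23.4 CPM. All 5 were highest in Ti replicate 2. Gm18943 and Ksr1 stayed under 1 CPM in the other 5 libraries.

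The row named Mir5117, a snoRNA entry inside Gas5, held 1 in 4 libraries and 85 and 104 in replicate 3 of Ctrl and of Ti. The retained-intron form Gas5-212 held a deposited value of 901 in Ctrl replicate 3 and 0 to 99 in the other 5 libraries.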
